A study of Mus musculus with 2 samples.

Results

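The genes that lay out the dorsoventral and nasotemporal axes of the retina are described here by the POU3F1 peaks assigned to them at embryonic day 14 of the mouse. The set holds 9 genes: the T-box factors Tbx2, Tbx3 and Tbx5, the signalling protein gene Bmp4, the homeobox genes Vax1 and Vax2, the forkhead gene Foxd1, and the retinaldehyde dehydrogenase genes Aldh1a1 and Aldh1a3. They were looked up by symbol in the authors' gene table, in which 2323 genes have a peak, and 3 of the 9 had a row there. These 3 rows hold 7 of the 2652 peaks in the authors' list. The data came from 1 CUT&RUN library made with an antibody against POU3F1 and 1 made with rabbit IgG. Both are from cells of wild-type (WT) retina of the CD1 strain at this age, and only peaks of the POU3F1 library were used. CUT&RUN releases and sequences the chromatin fragments around an antibody-bound protein. There is 1 library per antibody, so no value below has a replicate check and none is tested. Occupancy does not report expression, so the labelled tissue could not be checked against marker genes.

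As background, the dorsal retina is specified by Bmp4, a secreted ligand that maintains the T-box genes Tbx2, Tbx3 and Tbx5, and the ventral retina and optic stalk by Vax2 and Vax1. Foxd1 marks the temporal retina and is required for the ventrotemporal region, from which the uncrossed retinal axons of the mouse arise. Aldh1a1 and Aldh1a3 make retinoic acid in the dorsal and the ventral retina. POU3F1 is a POU-domain transcription factor, a class that binds the octamer sequence and variants of it.

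No POU3F1 peak overlapped a promoter of these genes, as far as RefSeq promoter sequences could be matched. Promoter sequences of RefSeq build GRCm38.p6 were matched for 4 of the 9 genes, with 5 start sites because Aldh1a1 has 2. The 250 bases before the start are printed for the 2 starts of Aldh1a1, since the distances of its peaks depend on which start is used, and for Bmp4, the other matched gene with an assigned peak. Bases are given 5′ to 3′ on the strand of the gene, and capitals mark letters of a searched motif. The first Aldh1a1 sequence lies at chr19:20492333-20492582 (plus strand), the second at chr19:20601718-20601967 (plus strand), and that of Bmp4 at chr14:46390670-46390919 (minus strand).
Aldh1a1 upstream start: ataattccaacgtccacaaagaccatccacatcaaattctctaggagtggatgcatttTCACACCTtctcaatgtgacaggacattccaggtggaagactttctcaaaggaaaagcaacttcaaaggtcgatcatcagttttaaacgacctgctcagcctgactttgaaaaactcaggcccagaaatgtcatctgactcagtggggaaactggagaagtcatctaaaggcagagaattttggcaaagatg
Aldh1a1 downstream start: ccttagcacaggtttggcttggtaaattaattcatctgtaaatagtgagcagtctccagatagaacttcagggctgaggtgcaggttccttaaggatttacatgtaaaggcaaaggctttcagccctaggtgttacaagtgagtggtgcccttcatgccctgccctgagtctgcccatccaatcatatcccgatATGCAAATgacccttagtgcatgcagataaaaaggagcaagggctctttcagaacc
Bmp4: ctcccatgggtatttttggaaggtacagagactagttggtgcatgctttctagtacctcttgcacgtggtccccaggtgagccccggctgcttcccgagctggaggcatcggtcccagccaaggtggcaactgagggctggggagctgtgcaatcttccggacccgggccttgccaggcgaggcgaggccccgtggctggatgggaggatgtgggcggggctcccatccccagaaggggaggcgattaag

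The octamer ATGCAAAT stood 56 to 49 bases before the downstream start of Aldh1a1. It occurred in this window, in none of the other 4 windows of these genes, and in 1.60% of all 32851 promoter windows of the same length. The first 7 letters of the octamer, ATGCAAA, which overlap it, were found in the same place and in 4.12% of all windows. The T-box site AGGTGTGA was present on the opposite strand 192 to 185 bases before the upstream start of Aldh1a1 (TCACACCT as printed), and in 1.12% of all windows. The homeodomain core TAATTA (4.84% of all windows), TAATGANAT (0.804%) and CATATGCAT (0.183%) occurred in none of the 5 windows. Both strands were searched. A match describes the letters only, and no peak lay in either Aldh1a1 window. The sequences under the peaks were not analysed here.

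The 9 genes fell into 3 with assigned peaks, Tbx2, Bmp4 and Aldh1a1, and 6 without, Tbx3, Tbx5, Vax1, Vax2, Foxd1 and Aldh1a3. The share with a peak was 33.3% (exact Clopper-Pearson 95% interval 7.49 to 70.1%, counting error only), against 10.2% of 21900 protein-coding genes, a value inside that interval. Every assigned distance was over 50 kb from the transcription start site (TSS) that the gene table used. None of the 9 genes had an assigned peak within 50 kb of that TSS, against 3.67% of protein-coding genes. For Aldh1a1 this depends on which start is used, as described below. All 7 peaks were also paired with a second gene, and 4 of them lay nearer to the TSS of that gene. In any peak paired with 2 genes, 1 of the pairs is the longer, and the share of longer pairs over the whole list was not computed. Of 2482 peaks placed over the whole list, 69.0% were paired with 2 or more genes. The pairs come from GREAT, a tool that gives each gene a regulatory domain reaching to those of its neighbours, for up to 1 Mb.

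**Figure D1:**
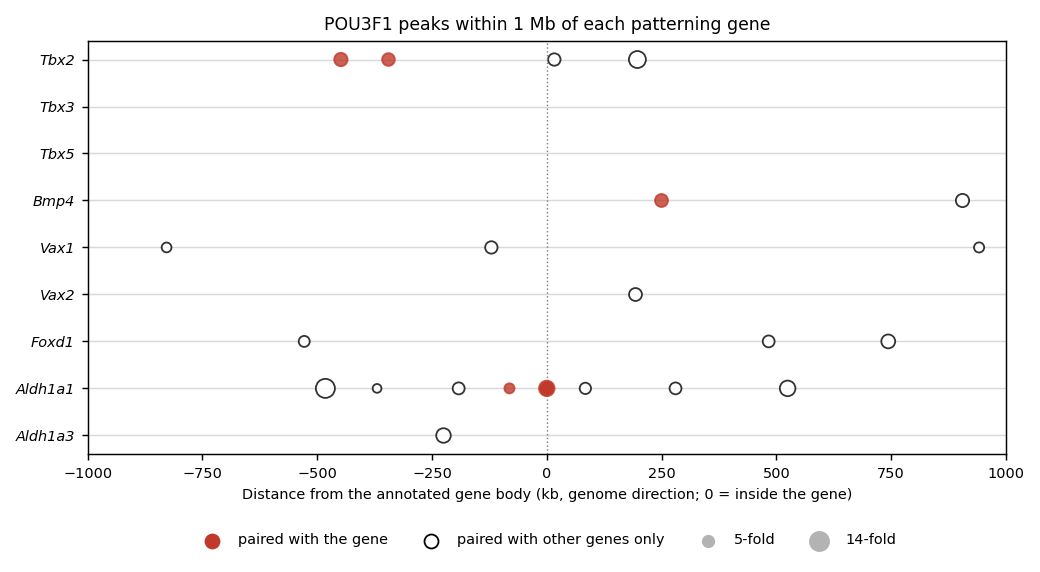
POU3F1 peaks within 1 Mb of each patterning gene, by signed distance from the annotated gene body in kb in genome direction (0 is inside the gene), with circle area proportional to the authors' fold. Filled circles are paired with the gene and open circles with other genes only. Tbx3 and Tbx5 have no peak in the window, and only Aldh1a1 has peaks inside the gene.

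The 7 peaks were mostly short and of ordinary fold, and their pileups were all below the median of the list. Their fold, the authors' ratio of signal at the peak's summit to the background around it, had a median of 6.30 (range 3.93 to 9.33). The median over all 2652 peaks was 6.37. The pileups below were recovered by taking this ratio to have the same small constant added to signal and background. The fold is thus lower than the plain ratio of pileup to background. Their median length was 221 bp (198 to 365 bp), against 352 bp over all peaks. The summit pileup, the number of fragments covering the summit, had a median of 14 (7 to 18), against 19 over the 2609 peaks with a recoverable value. These counts are low, so each position rests on few fragments. For 3 of the 7 peaks the local background was at the lowest level in the list, 1.04 fragments, a level shared by 30.1% of all peaks with a recovered pileup. The midpoint of 6 of the 7 peaks lay in an annotated gene, against 56.0% of all peaks. The midpoint of 4 of the 7, of which 3 lie together in Aldh1a1, lay in a long non-coding RNA gene, against 12.3% of all peaks. Exons and introns were not separated by the annotation used.

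**Figure D2:**
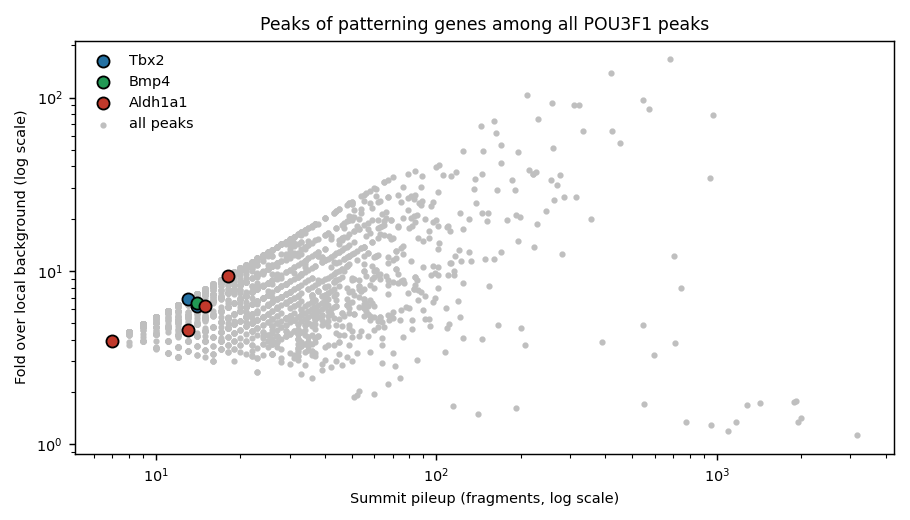
Fold over local background against the summit pileup in fragments, both on log scales, for the 7 peaks of Tbx2, Bmp4 and Aldh1a1 (large points) and for all peaks with a recovered pileup (small points). The 7 peaks sit between 7 and 18 fragments and between 3.93 and 9.33-fold, in the lower left of the cloud.

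Among the dorsal factors, Tbx2 had 2 assigned peaks, and neither lay close to it. The gene, which encodes a T-box repressor of the dorsal retina, lies at chr11:85832615-85841948. The first peak, chr11:85384009-85384206, had 6.88-fold enrichment, a −log10 q-value of 7.34 and a summit pileup of 13 fragments, and lay 448444 bp upstream of the TSS. The second, chr11:85487630-85487857, had 6.22-fold enrichment, a −log10 q-value of 6.68 and 14 fragments, and lay 344808 bp upstream. Both are inside Bcas3, the long gene next to Tbx2, and were paired with it as well, 30895 and 134531 bp downstream of its TSS. They ranked 1085 and 1356 of 2652 by fold.

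Another peak lay nearer to Tbx2 than either of these and was not paired with it. This peak, chr11:85858205-85858480 (5.89-fold, −log10 q-value 5.22, 11 fragments), stood 16395 bp beyond the annotated end of Tbx2. It was 25791 bp from the Tbx2 TSS that the gene table used and 28080 bp upstream of the TSS of Tbx4, a neighbouring T-box gene known for hindlimb development. Of the pairs that could be placed (95.2% of the table), only that with Tbx4 fell on this peak. The strongest peak within 1 Mb of Tbx2 was chr11:86038865-86039766 (11.0-fold, 112 fragments), 197368 bp beyond the gene, and it was paired with Tbx4 and Brip1. Counting peaks by the pairs or by distance thus gives different peaks for Tbx2.

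Tbx3 and Tbx5, adjoining T-box genes at chr5:119670534-119684724 and chr5:119796514-119885220, had no peak within 1 Mb of the gene body. Of all protein-coding genes 34.1% had none, and the median gene had 1 (quartiles 0 and 2), so a locus without one is common in this list. The closest peak to both was chr5:116852640-116852863 (4.91-fold, 9 fragments), 2817782 bp from Tbx3 and 2943762 bp from Tbx5. The pair lies in a stretch of 6.05 Mb without any peak, from 116852863 to 122900083 on chromosome 5, which holds 78 protein-coding genes. It ranked 38 by length among 2532 stretches between neighbouring peaks on the autosomes, whose median was 313 kb.

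Bmp4, the dorsal ligand gene at chr14:46383525-46390669, had 1 assigned peak. It lay at chr14:46639538-46639758, 248979 bp upstream of the TSS, with 6.50-fold enrichment, a −log10 q-value of 7.11 and a pileup of 14 fragments. The peak was in no annotated gene. It was also paired with Cdkn3, a cell-cycle phosphatase gene whose TSS is nearer, 120893 bp from the peak. The only other peak within 1 Mb of Bmp4 (6.74-fold, 13 fragments) lay 903994 bp away at chr14:47294467-47294858 and was paired with Socs4 and Mapk1ip1l.

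The ventral and temporal genes Vax1, Vax2 and Foxd1 had no assigned peak, and neither had the dorsal genes Tbx3 and Tbx5. Only 10.2% of all protein-coding genes had one, so a gene without one is common. Vax1, at chr19:59164480-59170397, had its nearest peak 120748 bp away at chr19:59043627-59043837 (5.89-fold, 11 fragments), paired with Shtn1 and Eno4. Vax2, at chr6:83711239-83738313, had 1 peak within 1 Mb, 193132 bp away at chr6:83931277-83931613 (6.39-fold, 12 fragments), paired with Zfp638 and Dysf. For Foxd1, at chr13:98354245-98356705, the nearest of 3 peaks within 1 Mb was 483337 bp away at chr13:98839886-98840198 (5.40-fold, 10 fragments), paired with Fcho2 and Tnpo1. Each of these peaks was paired only with other genes, whose TSSs were nearer. Their folds, 5.40 to 6.39, were near or below the list's median of 6.37.

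Of the retinoic acid enzymes, one had peaks and the other had none. Aldh1a1, the dorsal enzyme at chr19:20492583-20643463, had 4 assigned peaks, more than any other of the 9 genes, and Aldh1a3, the ventral enzyme at chr7:66390892-66427477, had none. The only peak within 1 Mb of Aldh1a3 was chr7:66165251-66165507 (8.13-fold, 28 fragments), 225513 bp away and, among placed pairs, paired with Chsy1 alone. Around Aldh1a1 there were 10 peaks within 1 Mb. Aldh1a1 is also the longest of the 9 genes, at 150881 bp, against 36586 bp for Aldh1a3. The part of gene length in this difference was not tested.

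Of the Aldh1a1 peaks, 3 formed a group inside the gene. The strongest of the 7 peaks described here, chr19:20509741-20510105, had 9.33-fold enrichment, a −log10 q-value of 13.2 and 18 fragments, and ranked 575 in the list. Beside it lay chr19:20508783-20508996 (6.30-fold, −log10 q-value 7.15, 15 fragments) and chr19:20506994-20507231 (4.58-fold, −log10 q-value 3.80, 13 fragments). Fold and pileup were highest in the most downstream peak of the group and lowest in the most upstream. The 3 peaks spanned 3112 bp, with midpoints 1777 and 1034 bp apart, and lay in both Aldh1a1 and the overlapping long non-coding RNA gene E030003E18Rik. Over the autosomes and chromosome X, 18 of 2594 peaks (0.694%) stood in a run of 3 neighbours within such a span. That count was chosen after the group was seen.

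The gene table places this group upstream of Aldh1a1, at 94849, 93072 and 92038 bp before the TSS, because the TSS it used was at 20601962 on chromosome 19. RefSeq has a start 6 bp from there, at 20601968, and another 109385 bp further upstream, at 20492583. From the upstream start the same peaks lie downstream, at 14530, 16307 and 17340 bp. They are thus within 50 kb of one annotated start and over 90 kb from the other. Which start was used in these retinas cannot be read from the peaks. In the table all 3 were also paired with Anxa1, an annexin gene, at 116168 to 118979 bp from its TSS.

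The fourth Aldh1a1 peak, chr19:20411158-20411370, was the weakest of the 7, with 3.93-fold enrichment and 7 fragments. Its −log10 q-value of 1.49 did not reach a q-value of 0.01. It lay 190697 bp upstream of the TSS used and 81319 bp before the upstream RefSeq start, inside the non-coding gene 1500015L24Rik, and 20320 bp upstream of Anxa1. On the other side of the gene, a peak of 4.91-fold with 9 fragments (chr19:20727366-20727597) stood 81 bp downstream of the TSS of Aldh1a7, the neighbouring paralogue, and, among placed pairs, was paired with Aldh1a7 alone. How reads that match both paralogues were treated is not given in the sources used here.

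**Figure D3:**
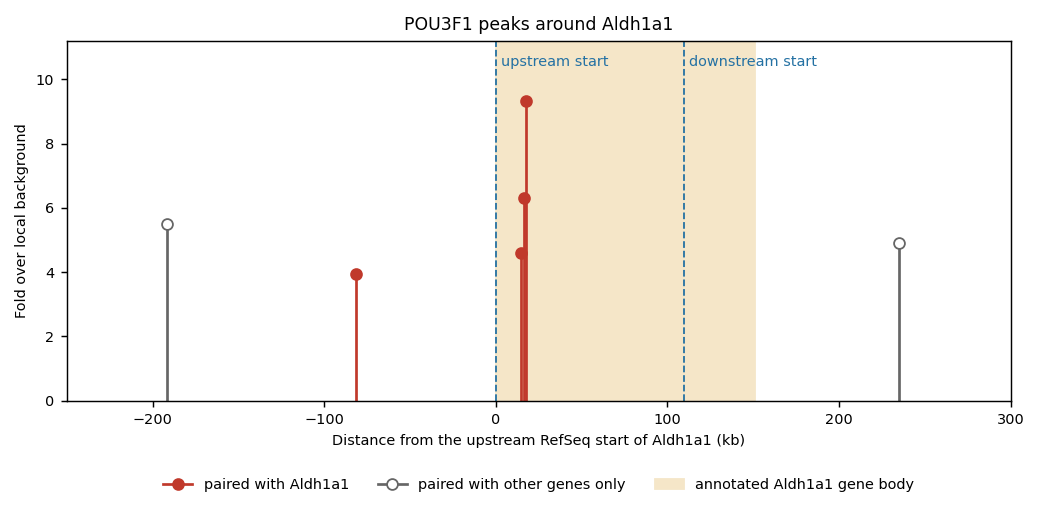
POU3F1 peaks around Aldh1a1 by distance in kb from its upstream RefSeq start, with the authors' fold as height. Filled red points are paired with Aldh1a1, open points with other genes only, the shaded band is the annotated gene and dashed lines are the 2 RefSeq starts. The group of 3 peaks, from 4.58 to 9.33-fold, stands between the 2 starts, close to the upstream one. More distant peaks, among them the strongest within 1 Mb of the gene, are outside the plot.

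By distance from the gene body alone, whatever the pairs, 2 of the 9 genes had a peak within 50 kb, Aldh1a1 with 3 inside the gene and Tbx2 with 1, against 9.0% of protein-coding genes. This rule was chosen after the data were seen.

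Other genes of the same pathways and axes were compared by lists from general knowledge, chosen with earlier results of these data known. Their shares are thus descriptions and not tests, and their intervals give counting error only. The size of the regulatory domain that GREAT gives each gene was not taken into account, here or in the share of all protein-coding genes. In all, 22 of 72 such genes (30.6%) had an assigned peak, against 10.2% of all protein-coding genes. The other BMP pathway genes had a peak in 4 of 19 cases (21.1%, exact 95% interval 6.05 to 45.6%), an interval that holds the 10.2% of all protein-coding genes. Id2, a BMP-induced inhibitor of bHLH factors, had its strongest peak (8.26-fold) 197092 bp upstream, and Msx2, a homeobox target of BMP, had one of 8.07-fold 161867 bp upstream. The receptor gene Bmpr1b had 6 peaks. The strongest by fold (6.39-fold, 12 fragments) lay 416445 bp downstream of the TSS, and the nearest (4.23-fold, 38 fragments) 38742 bp downstream. The ligand gene Bmp7 had a peak of 4.42-fold with 8 fragments 6294 bp downstream.

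Of the other retinoic acid genes, 2 of 16 had a peak (12.5%, interval 1.55 to 38.3%), a share near the background. Rarb, a retinoic acid receptor gene that retinoic acid itself induces, had a peak of 4.20-fold with 14 fragments 201 bp downstream of its TSS and one of 11.0-fold 514460 bp upstream. Cyp26c1, of the enzyme family that degrades retinoic acid, had a peak of 9.22-fold with 84 fragments 114353 bp upstream. Aldh1a2, the third retinaldehyde dehydrogenase gene, named after its values were seen, had none. In the T-box family, 2 of 14 further genes had a peak (14.3%, interval 1.78 to 42.8%): Tbx4, with the 2 described above, and Eomes (5.04-fold, 159488 bp upstream), a factor gene of retinal ganglion cell subsets.

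The other regional determinants had a peak in 6 of 13 cases (46.2%, interval 19.2 to 74.9%), against 10.2% of all protein-coding genes. Within 50 kb of the TSS, 2 of the 13 had one, against 3.67% of protein-coding genes. Nr2f1, an orphan nuclear receptor gene of dorsoventral retinal identity, had 10 peaks, the strongest 18.7-fold at 738109 bp upstream and the nearest 5.32-fold at 859 bp upstream. Hmx3, a homeobox gene, had one peak of 17.6-fold with 80 fragments 77527 bp upstream. Gli2 (6.39-fold) and Gli3 (5.90-fold), which encode effectors of Hedgehog signalling, Pax2 (4.74-fold), a gene of the optic stalk and ventral eye, and Nr2f2 (4.25-fold) had 1 peak each. Hmx1, a homeobox gene of the nasal retina, named after its values were seen, had none.

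Ephrins and Eph receptors, families with members graded across the retina, had a peak in 8 of 10 listed genes (80.0%, interval 44.4 to 97.5%). The share of all protein-coding genes was 10.2%. Within 50 kb of the TSS, 4 of the 10 had one, against 3.67% of protein-coding genes. Whether each listed gene is graded in the mouse retina was not checked here. Their genes are long, with a median of 168 kb, against 14.2 kb for the 9 patterning genes and 17.1 kb for all protein-coding genes; the part of length in this share was not tested here. Epha3 had 10 peaks (strongest 62.8-fold), Epha6 had 4 (21.9-fold), Epha4 had 4 (20.1-fold), Efna5 had 3 (9.82-fold), Efnb1 had 1 (9.33-fold) and Epha5 had 5 (6.89-fold). Of the 22 genes of these lists with a peak, 7 had one of at least 10-fold, and 0 of the 3 patterning genes with a peak did. Among all 2230 genes with a placed peak, 27.2% had one of at least 10-fold.

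**Figure D4:**
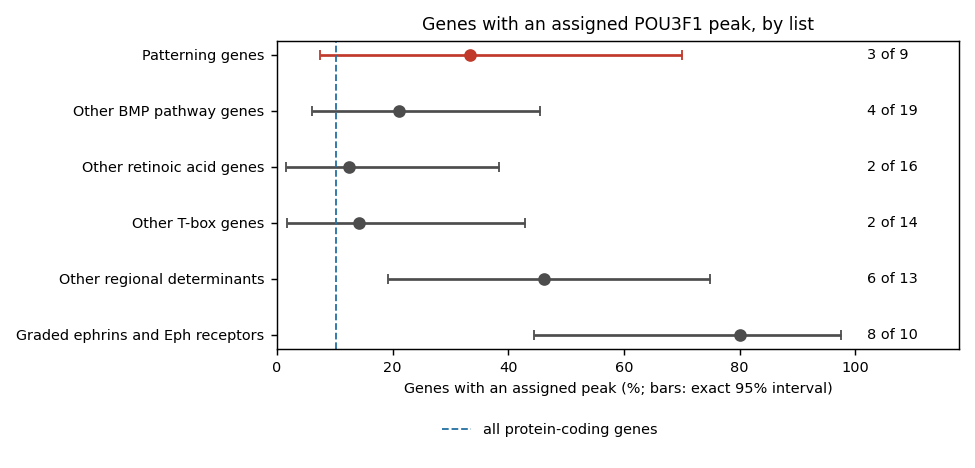
Share of genes with an assigned POU3F1 peak in percent, for the 9 patterning genes and 5 lists of related genes; bars are exact binomial 95% intervals and the dashed line is the 10.2% of all protein-coding genes. The intervals of the patterning genes and of the BMP, retinoic acid and T-box lists include the line. Those of the regional determinants and of the ephrins and Eph receptors lie above it. The intervals give counting error only. The genes and lists were chosen with earlier results of these data known, so the place of an interval is not a test.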

How the data were processed

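CUT&RUN peaks of 1 POU3F1 library from E14 retina were used. Per the submitters' processing notes, the tools were Bowtie2, MACS2 and deepTools (versions not given) on mm10; whether the IgG library served as control was not stated there. The deposited narrow-peak list gives per interval a score, a fold enrichment (ratio), and −log10 p- and q-values, as computed by the authors. A list threshold of q under 0.05 is named by the authors. Per the file headers, the gene table came from GREAT 4.0.4 on mm10. Peak numbers ran through all 2652 entries without a gap.

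Distances were placed on peaks by finding the TSS that puts them on peak midpoints (4215 pairs, 95.2%, including all pairs of the genes named). Summit pileups were recovered from fold and p-value within 0.001 of −log10 p (2609 peaks, 98.4%). That step was run on values simulated from the same formula, which checks the computation only. Placement was run on made-up genes among the real peaks, each with its true start supplied. Genes with several starts were not simulated. Library depth is unknown. Gene positions and promoters are from RefSeq GRCm38.p6, the assembly of mm10. Coordinates count from 1. Python 3.11.15 and scipy 1.17.1 were used. Named genes were all 9 patterning genes, the genes sharing their peaks and up to 6 genes of each related list by strongest fold. The patterning genes and lists were chosen with earlier results of these data known. No test was made. The planned octamer search under peaks could not be run, and motifs were searched in promoters instead.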

Additional observations from a re-analysis of the deposited data

How the results depend on the processing

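The count of patterning genes with a peak depended on how peaks are given to genes. It was 3 genes and 7 peaks as deposited, 0 genes and 0 peaks with pairs within 50 kb or within 5 kb of the TSS or with peaks of at least 10-fold, and 1 gene (Aldh1a1) and 3 peaks with each peak given only to its nearest TSS. Of the 72 related genes, 22 had a peak as deposited, 10 within 50 kb, 3 within 5 kb and 7 at 10-fold. The count was 18 with each peak given only to its nearest TSS, 22 with q under 0.01 and 21 with q under 0.001. Of all protein-coding genes, 10.2% had an assigned peak and 3.67% had one within 50 kb. Shares of all protein-coding genes were not computed for the other settings, so the counts there cannot be set against a background. With q-values under 0.01 or under 0.001, 3 patterning genes kept a peak. The median fold of their peaks was then 6.40, because the weakest Aldh1a1 peak dropped out. Of alternatives chosen after seeing the data, measuring Aldh1a1 from its upstream start gave 1 gene and 3 peaks within 50 kb, and counting peaks within 50 kb of gene bodies gave 2 genes and 4 peaks. The strongest folds of Tbx2, Bmp4 and Aldh1a1 were the same under both q-value limits, and that of Aldh1a1 also with the nearest TSS alone. The motif alternatives under peaks were not run. No paired analysis was possible because there is 1 library per antibody. Low pileups, 7 to 18 fragments, limit the precision of every peak described.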
